A study of Macaca mulatta with 9 samples.

Results

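Small antral follicles (SAFs) are ovarian follicles in which a fluid-filled cavity, the antrum, has opened among the granulosa cells. The arrays described here are the 3 hybridised with RNA of SAFs from control rhesus macaques (Macaca mulatta), picked by their label of a normal diet out of 9 arrays in the series. The control donors were young adult females eating a standard diet, sampled around menses in the early follicular phase, and no strain, genotype or drug treatment is named for them. The other 6 arrays, 3 for a western-style diet (WSD) and 3 for that diet with chronically raised androgen (WSD+T), were not compared with the controls here. Follicles taken for healthy, with a clear antrum and no dark cells, were freed of loose stroma with needles and combined within each animal. A group came from 3 ovaries that yielded 3.7 ± 0.3 SAFs each, where the labels do not say what the error is. All cells were lysed, so an array reads the granulosa cells, the other cells of the wall, the cumulus and the oocyte as 1 mixture, averaged over a few follicles of 1 animal. In such a mixture fewer cells of a type and less RNA per cell cannot be told apart.

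In a follicle of this size the granulosa cells lie inside a basement membrane and the theca cells outside it, next to the blood vessels, which do not cross the membrane. Theca cells turn cholesterol into androgens under luteinising hormone, and granulosa cells turn androgens into oestradiol with the aromatase CYP19A1 under follicle-stimulating hormone. Granulosa cells also secrete inhibins, activins, follistatin and anti-Müllerian hormone, while the oocyte makes its zona pellucida and growth factors that act back on the granulosa cells.

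The deposited value of a probe set (the group of probes read as 1 spot) is a MAS5 signal, a linear brightness without unit that was scaled to a common mean on every array. Probe sets differ in how strongly they bind, so a signal ranks a gene on the array and does not count its transcripts. Each of 14132 genes is given by its probe set with the highest mean signal, and its percentile is its rank among those genes, averaged over the arrays. A gene is called above the reference level if its signal on all 3 arrays exceeded the 95th percentile of 116 genes of tissues that a follicle does not hold, such as liver, muscle, retina and pancreas. That level was a signal of 249.9 on replicate 1, 238.7 on replicate 2 and 178.4 on replicate 3. By this rule 5242 of the 14132 genes, 37.1%, were above the level, which is the share against which each list below is read. With 3 arrays of 1 group there is no contrast to test, and the values are given as means ± SD with the spread between animals.

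The 3 arrays resembled each other, with Pearson correlations of log2 signal over the 14132 genes of 0.978 (replicates 1 and 2), 0.979 (1 and 3) and 0.983 (2 and 3). These correlations run across genes, which are not independent replicates. Replicate 1 stood apart in genes of macrophages, described below. Counts of genes with a wide range are therefore also given for replicates 2 and 3 alone, among genes above the level on at least 1 of those arrays. On replicate 3 all 18 probe sets of the bacterial and phage hybridisation controls were the highest of the 3 arrays, by a median ratio of 1.22 to replicate 1 and 1.28 to replicate 2, and its reference level was the lowest. The ratio of 3′ to 5′ signal of actin, a sign of RNA integrity and amplification, was 2.52, 2.83 and 2.90 on replicates 1 to 3. The part of these differences in the results was not tested.

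The follicle's own cell types were unevenly visible at this level. Of the genes with a usable probe set, 10 of 19 granulosa, 6 of 10 theca and 9 of 12 fibroblast and stroma genes were above it, against 4 of 29 oocyte and 2 of 20 blood vessel endothelium genes. None of 8 lymphocyte, 4 mast cell, 4 lymphatic endothelium or 3 Schwann cell genes reached it on all 3 arrays, although 3 lymphatic endothelium genes did with the level at the 90th percentile of the reference genes. The median percentile was 78.3 for the granulosa list, 73.3 for the theca list, 43.8 for the endothelium list and 39.8 for the oocyte list. The receptors of both gonadotropins, FSHR and LHCGR, and CYP11A1, GDF9, ZP2, FOXL2, GJA1 and INSL3 were not analysed here.

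**Figure D1:**
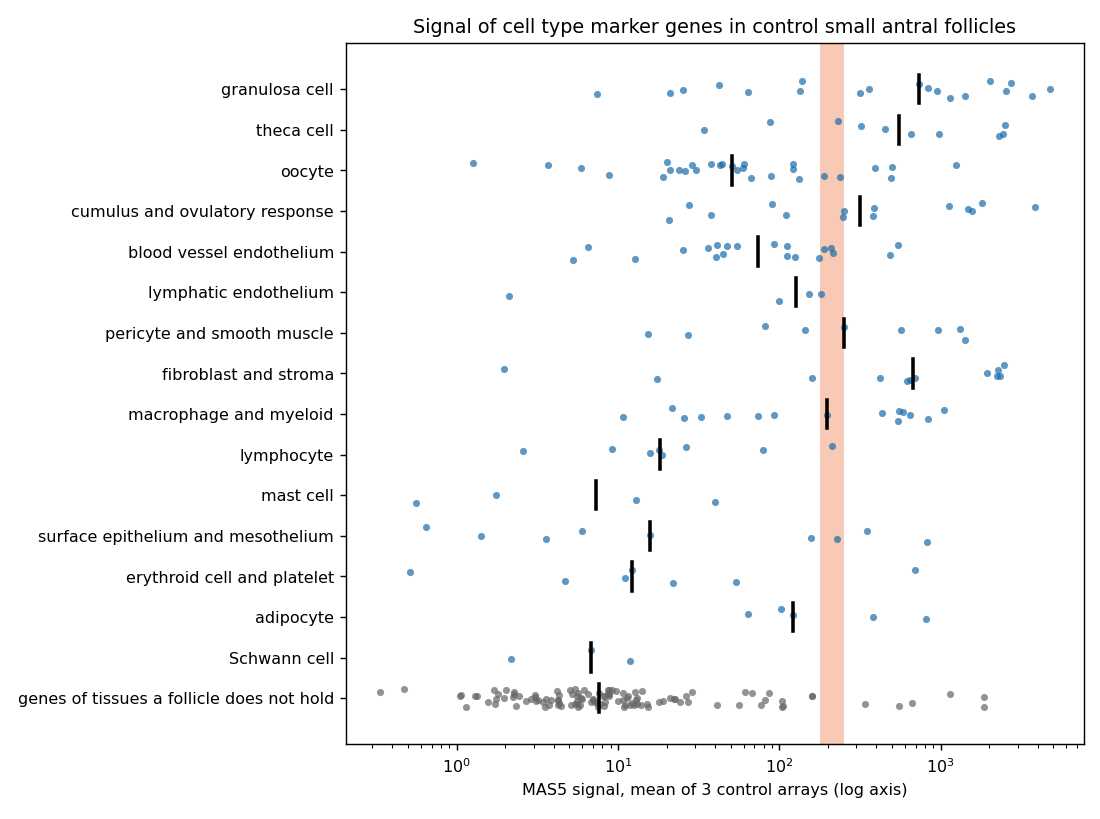
MAS5 signal of each marker gene, as the mean of the 3 control arrays on a log axis, for 15 cell type lists and, in grey, the 116 genes of tissues a follicle does not hold. Points are genes, black bars are list medians, and the shaded band spans the reference level of the 3 arrays (178.4 to 249.9): the granulosa, theca and stroma medians (737, 554 and 670.3) lie to its right and the oocyte and endothelium medians (50.9 and 73.9) to its left.

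Granulosa genes included some of the brightest in the follicle. SERPINE2, a secreted inhibitor of serine proteases, gave signals of 4155, 4348 and 5776 on replicates 1 to 3, a mean of 4759.8 ± 885 (SD, n = 3), and was among the 30 genes of highest signal. PRKAR2B, a regulatory subunit of protein kinase A that granulosa cells switch on under follicle-stimulating hormone, gave 3247, 3654 and 4140.1 and a percentile of 99.1. The nuclear receptor NR5A2, which drives granulosa differentiation, was nearly level, at 2485, 2643 and 2544 (2557 ± 79.7, SD, n = 3). GATA4, a transcription factor of gonadal somatic cells, gave signals of 857, 937 and 704. For WT1, a transcription factor of early granulosa cells, the signal was 1385, 981 and 479, highest on replicate 1 and lowest on replicate 3. HSD17B1, which reduces oestrone to oestradiol in granulosa cells, gave 1017, 828 and 1569, with replicate 3 the highest.

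Among the peptide hormones of granulosa cells, follistatin and the inhibin subunits INHA and INHBA were above the level and INHBB was not. Follistatin (FST), which binds and neutralises activin, gave signals of 2579, 2535 and 3053, a mean of 2722 ± 287 (SD, n = 3). INHA, the α subunit that makes inhibin out of an activin subunit, gave 957, 2605 and 2535. Replicates 2 and 3 were close together in INHA, and the range down to replicate 1 was 1.43 on the log2 scale of signal plus 16, against 0.04 between replicates 2 and 3. Replicate 1 is the array with bright myeloid genes, and their part in this value was not tested. The subunit INHBA (βA) was level across animals at 1417, 1453 and 1353, although its other probe set averaged a signal of only 83.1. INHBB (βB) gave 106, 148 and 158, a percentile of 52.8, below the level on every array.

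Anti-Müllerian hormone (AMH), made by granulosa cells of growing follicles, gave 383, 226 and 336 and exceeded the level on replicates 1 and 3. Its receptor AMHR2 gave 122, 134 and 144, close together and below the level. Also below the level on all arrays were ESR2 (oestrogen receptor β, 38.7, 53.2 and 35.1), the stem cell factor KITLG, the hedgehog ligand DHH, the keratin KRT18 and the nuclear receptor NR0B1. Aromatase itself, CYP19A1, gave 185, 587 and 306: it was above the level on replicates 2 and 3 and below it on replicate 1, a range of 1.59 on the log2 scale, against 0.91 without replicate 1.

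Theca and steroidogenic genes were bright as well. STAR, which carries cholesterol into mitochondria, gave signals of 2788, 1853 and 2896, a mean of 2513 ± 573 (SD, n = 3) and a percentile of 96.2. CYP17A1, the theca enzyme that turns progestins into androgens, gave 559, 612 and 800.1 (657 ± 127, SD, n = 3). The other of its 2 probe sets averaged a signal of only 5.09. The helper of CYP17A1, cytochrome b5 (CYB5A), gave 2107, 2361 and 2849. HSD3B2, which converts pregnenolone to progesterone, gave 810.1, 1077 and 1040.1. All 4 were above the level on every array. The peptidase ANPEP and the nuclear receptor NR2F2, which marks theca and stroma, were above the level too, NR2F2 within a range of 0.10 on the log2 scale. NR5A1, the steroidogenic factor of theca cells, was not, at 27.4, 27.0 and 47.8.

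The hedgehog signal links both layers: granulosa cells release the ligand IHH, and theca cells answer with the receptor PTCH1, the decoy receptor HHIP and the transcription factor GLI1. IHH gave signals of 628, 956 and 627, above the level on all 3 arrays. PTCH1 gave 208, 290.4 and 197 and HHIP 192, 594 and 182, each above the level on 2 arrays. GLI1 gave 61.6, 114 and 87.0 and stayed below it. All 4 genes had their highest signal on replicate 2, the array where CYP19A1 was highest as well. Replicate 2 stayed the highest for all 4 under quantile normalization, median centring and centring on the hybridisation controls. Of all genes 29.7% were highest on that array as deposited, and 36.4%, 35.8% and 53.4% under those scalings. The 4 genes were grouped after their values were seen, so their shared order is a description of that choice.

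**Figure D2:**
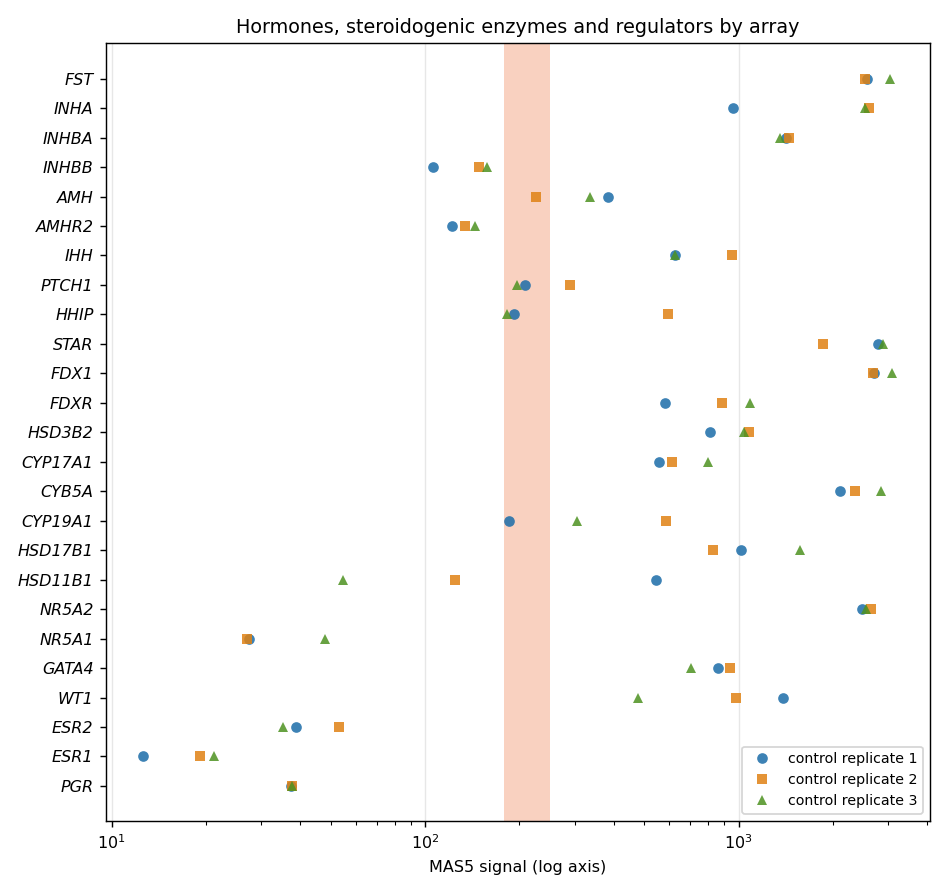
MAS5 signal (log axis) of hormones, steroidogenic enzymes, hedgehog genes, transcription factors and receptors on each control array, 1 symbol per replicate, with the reference level of the 3 arrays shaded. INHA (957 on replicate 1, 2605 on replicate 2) and CYP19A1 (185 and 587) spread widely, while NR5A2 and INHBA overlap, and ESR1, ESR2, PGR and NR5A1 lie left of the band.

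Of 21 steroidogenic enzymes and electron donors 12 were above the level. The mitochondrial ferredoxin FDX1, which feeds electrons to side-chain cleavage, gave 2703, 2692 and 3099, and its reductase FDXR 581, 888 and 1092. FDXR was lowest on replicate 1 and highest on replicate 3, while FDX1 differed by only 0.20 on the log2 scale. The microsomal donor POR gave 830.4, 728 and 627, the oestrogen-hydroxylating CYP1B1 926, 1075 and 813 and the peroxisomal HSD17B4 1018, 1052 and 973. Members with no signal above the level on any array included CYP21A2, CYP11B1, CYP3A5, SULT2A1 and HSD17B2, enzymes known chiefly from the adrenal gland, liver and placenta. HSD11B1, which regenerates cortisol, was above the level only on replicate 1, with 545, 125 and 54.7.

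Of 24 genes of cholesterol supply 18 were above the level. The lysosomal cholesterol carrier NPC2 gave 3566, 2914 and 3643 and the lysosomal lipase LIPA 3596, 2289 and 3894. Of the synthesis pathway, squalene synthase FDFT1 gave 2113, 2866 and 2867, CYP51A1 1582, 1836 and 1310.0 and EBP 1153, 1399 and 1819. NSDHL, a later step, was among the most even genes, at 1047, 1048 and 1024. INSIG1, which holds SREBP proteins back in the endoplasmic reticulum when sterol is ample, gave 2109, 1202 and 1014, highest on replicate 1. The mitochondrial channel VDAC1 (3101, 2769 and 3079) and the Golgi protein ACBD3 (2259.8, 2343 and 2062) were above the level as well. Mevalonate enzymes MVD and MVK, DHCR7, STARD3 and the cholesterol exporter ABCA1 were below the level on every array.

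The oocyte list was faint in the pooled follicles. Only NLRP7, NLRP4, UCHL1 and the zona protein gene ZP4 were above the level on all arrays, against 37.1% of all genes. NLRP7, a maternal-effect gene, gave 1207, 1166 and 1342, and NLRP4, of the same family, 557, 707 and 241. ZP4 gave 532, 349 and 293 and ZP3, the zona protein that binds sperm, 297, 261 and 152, above the level on replicates 1 and 2 alone. BMP15, the oocyte growth factor, gave 35.6, 10.8 and 14.2, a percentile of 27.2. The oocyte transcription factors FIGLA (45.7, 30.1 and 9.96) and NOBOX (7.53, 4.26 and 6.00), the RNA-binding protein DAZL and the arrest kinase MOS were below the level throughout.

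Although dim, most oocyte genes had their lowest signal on the same array. Replicate 3 had the lowest signal in 24 of the 29, against 32.0% of all genes that were lowest on that array. The highest array was less shared: replicate 1 in 20 genes and replicate 2 in 7, against 31.4% and 29.7% of all genes. After median centring these counts were 14 and 12, against 19.3% and 35.8%. NLRP5, a maternal-effect gene of the oocyte cortex, gave 90.7, 68.9 and 19.3, FIGLA 45.7, 30.1 and 9.96 and the zona gene ZP1 24.4, 42.5 and 4.68. These 3 were lowest on replicate 3 but below the reference level on every array, where signal may be unspecific. They were chosen for display after their values were seen. The summed signal of the list was 4681, 4504 and 3176 on replicates 1 to 3, with a median deviation from each gene's mean of 0.24, 0.11 and -0.47 on the log2 scale. NLRP7 ran the other way, with its highest signal on replicate 3. The count of genes lowest on replicate 3 was 24, 23 and 29 of 29 under quantile normalization, median centring and centring on the hybridisation controls. Of all genes 33% were lowest on that array under quantile normalization and 24.1% under median centring. Under centring on the hybridisation controls 9718 of all 14132 genes, 68.8%, were lowest on it too.

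Cumulus genes, which expand the cumulus matrix around ovulation, gave a mixed picture with 6 of 14 above the level. VCAN, the proteoglycan versican, gave 3589, 3816 and 4161 and had all of its 5 probe sets above the level. SDC4 gave 1876, 1202 and 2305 and RUNX1, a transcription factor induced by luteinising hormone, 1394, 1636 and 1415, the latter through 1 of 7 probe sets. The ovulatory genes proper were dim: AREG gave 31.4, 12.7 and 17.8, the hyaluronan synthase HAS2 145, 98.5 and 26.5 and the progesterone receptor PGR 37.3, 37.6 and 37.5. PTX3, a matrix protein of the expanding cumulus that myeloid cells also make, gave 593, 40.4 and 126, high on replicate 1 alone. The hyaluronan receptor CD44 (564, 82.6 and 101) and the protease ADAMTS1 (684, 236 and 221) likewise had replicate 1 at least 2-fold above both others. With all arrays 4 of the 9 cumulus genes above the level on at least 1 had a 2-fold range, against 7.39% of all genes so filtered. On replicates 2 and 3 alone 7 genes of the list were above the level on at least 1 array, and 0 of these had such a range. The share of all genes was 3.21% there, and with so few members 0 is near it. PTX3 and CD44 exceeded the level on replicate 1 only, so the filter itself took them out of the second count. With no filter, PTX3 and HAS2 had ranges of 1.34 and 1.43 on the log2 scale between replicates 2 and 3. The part of the myeloid genes in these values was not tested. TNFAIP6, a matrix cross-linker, was below the level throughout, at 218, 54.9 and 56.6.

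Vessel genes were dim apart from a pair of markers. PECAM1, an adhesion molecule of endothelium and some leukocytes, gave 767, 488 and 379 (545 ± 199.7, SD, n = 3) and ESM1, a marker of sprouting tip cells, 484, 563 and 399. CDH5, the junction protein of endothelium, gave 257, 205 and 179 and was above the level on 2 arrays. TEK, ENG and SELE reached it on 1 array each, and SELE, an adhesion molecule of activated endothelium, spread from 62.3 to 299. VWF gave 146, 84.1 and 103, KDR 23.3, 18.8 and 33.7 and FLT1 4.70, 6.00 and 5.02, all below the level. Replicate 1 had the highest signal in 12 of the 20 genes, against 31.4% of all genes, and in 11 to 13 of them under the other scalings, where 19.3% to 35.6% of all genes were highest on that array. Between the remaining arrays replicate 3 was the higher in 12 of the 20, against 54.9% of all genes. Myeloid genes were high on the same array, and their part in this order was not tested.

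Contractile and stromal genes were brighter. Of 9 pericyte and smooth muscle genes 5 were above the level: MYH11 (1337, 1685 and 1198), the smooth muscle myosin, then MCAM, NOTCH3, TAGLN and SYNPO2. The collagen genes COL1A1 (2303, 2563 and 2161), COL1A2 (1779, 2112 and 1890.4) and COL6A3 (2295, 2105 and 2254) were above it with narrow spreads, as was the proteoglycan decorin, DCN, at 2726, 2277 and 2423. The other of the 2 probe sets of COL1A1 averaged only 7.95. COL3A1, which stromal cells usually make beside type I collagen, was listed at 13.4, 19.4 and 19.3 by its only probe set. A low value of a single probe set thus says little about the transcript.

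Macrophage and other myeloid genes set replicate 1 apart from the other animals. LYZ, the lysozyme of phagocytes, gave 2419, 322 and 409, and the mannose receptor MRC1 gave 2038, 284 and 189.8. The lysosomal protein CD68 gave 1353, 66.3 and 228, AIF1 1269, 199 and 289, the signalling adaptor TYROBP 1118, 243 and 267 and the oxidase subunit CYBB 1092, 93.5 and 118. The lipopolysaccharide co-receptor CD14 gave 418, 100.3 and 71.6, and the pan-leukocyte phosphatase PTPRC 516, 52.8 and 63.7. In each of these 8 genes replicate 1 was at least 2-fold above both other arrays and no other array exceeded 409. PTPRC is on the lymphocyte list and not among the 15 myeloid genes counted below. CSF1R, the receptor that keeps macrophages alive, was 1 of the myeloid genes not set apart in this way, at 733, 510.0 and 686.

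All 15 myeloid genes had their highest signal on replicate 1 and none was listed at 0. That count was 14, 13 and 14 under quantile normalization, median centring and centring on the hybridisation controls, against 27.6%, 19.3% and 35.6% of all genes. Their summed signal was 10899.9, 2042 and 2487 on replicates 1 to 3. With no filter on the level, 10 of the 15 were at least 2-fold above both others on replicate 1, against 2.2% of all genes. Of the 6 that exceeded the level on replicate 2 or 3, 5 were, and 1 had a 2-fold range between replicates 2 and 3. Such a range was found in 3.21% of all genes that passed the same filter. Complement genes made by tissue macrophages differed less: C1QA gave 89.6, 57.8 and 73.6, C1QB 116, 82.2 and 79.4 and C1QC 65.1, 43.8 and 32.8. Their ranges were 0.52, 0.47 and 0.73 on the log2 scale, and that of the integrin ITGAM (23.3, 21.9 and 19.96) was 0.13. All of these genes were below the level on every array, where signal may be unspecific. No T or B lymphocyte gene (CD8A, CD4, CD79A, CD79B, MS4A1) reached the level on any array.

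**Figure D3:**
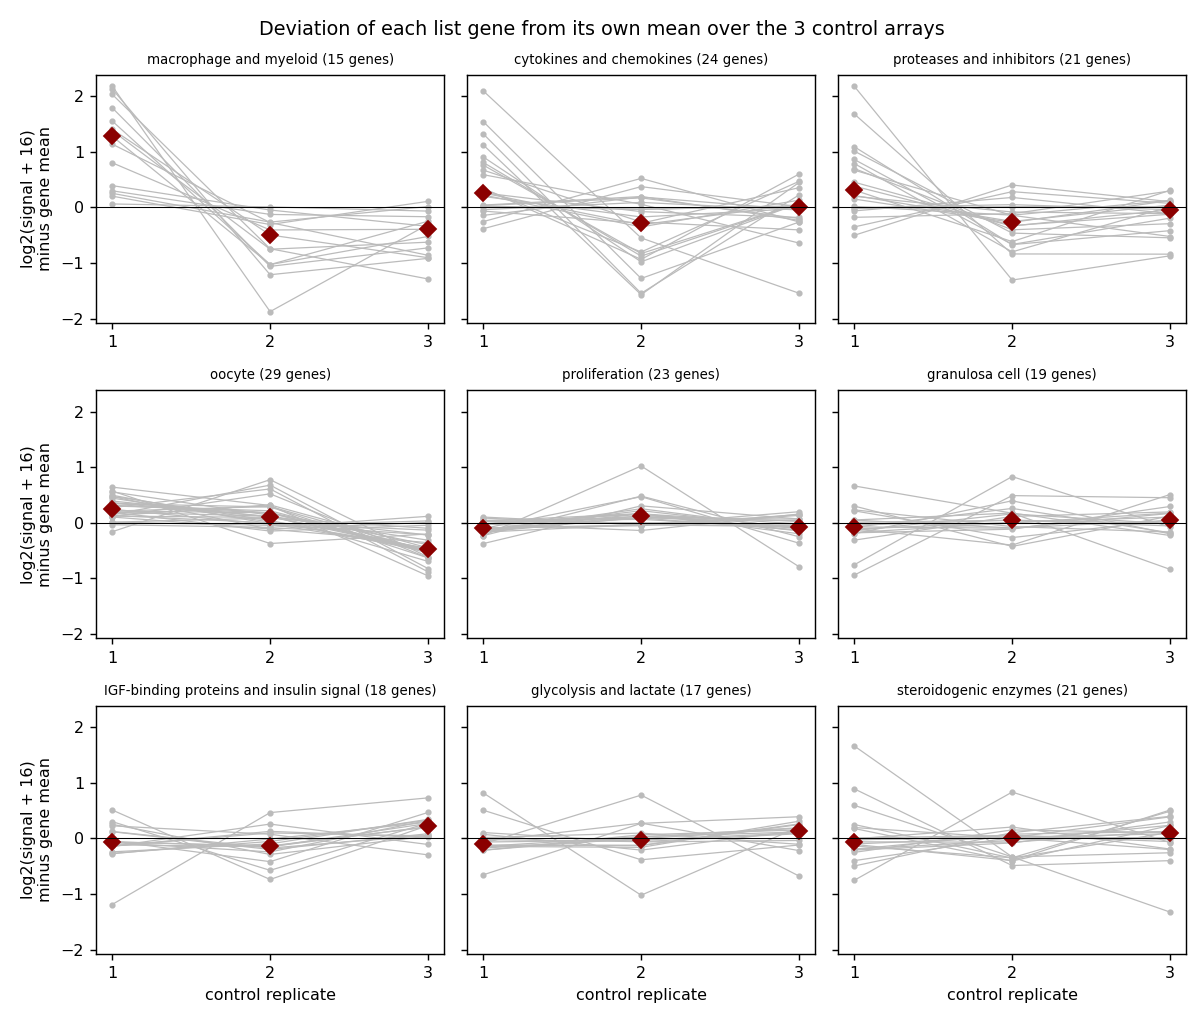
Deviation of each gene's log2(signal + 16) from its own mean over the 3 control arrays (y axis), by replicate (x axis), for 9 gene lists. Grey lines are genes and dark red diamonds list medians; the myeloid median is 1.28 on replicate 1 and -0.50 and -0.39 on the others, the oocyte median is -0.47 on replicate 3, and the granulosa and steroidogenic medians stay near 0.

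Of 23 hormone receptors 7 were above the level, 30.4% against 37.1% of all genes. The membrane-associated progesterone receptor components PGRMC1 (3094, 3307 and 3919.8) and PGRMC2 (1993, 2073 and 2557) ranked at percentiles of 98.8 and 95.1. The adiponectin receptors ADIPOR1 (837, 842 and 689) and ADIPOR2 (969, 1015 and 858), the glucocorticoid receptor NR3C1 (524, 553 and 601), IGF1R (498, 552 and 755) and IGF2R (544, 403 and 379) were also above the level. The nuclear receptors for oestrogen and progesterone were not, with ESR1 at 12.6, 19.1 and 21.3. EGFR, ERBB2, KIT, LEPR, PRLR, GHR and VDR were below it on every array.

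Activin, inhibin and bone morphogenetic protein (BMP) signals belong to the TGF-β family, whose receptors pass the signal on through SMAD proteins. Of its receptors and SMADs 10 of 20 were above the level. The shared receptors TGFBR1 (2262, 1973 and 2006) and TGFBR2 (1174, 1123 and 1062), the activin-type SMAD2 (1249, 1057 and 1152) and SMAD3 (1919, 2068 and 2454), the BMP-type SMAD5 (2095, 2092 and 2066) and the common SMAD4 (883, 994 and 1037) were among them. SMAD5 had the narrowest range of any list gene above the level, 0.02 on the log2 scale. The BMP target ID4 gave 2152, 2605 and 2481 while ID1 gave 66.6, 30.0 and 49.1. Activin and BMP receptor genes ACVR1B, ACVR2A, ACVR2B and BMPR1B were below the level on every array.

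Of 20 ligands and antagonists of the family 6 were above the level. Besides FST, INHA and INHBA they were the follistatin-like FSTL1 (2850.4, 2649 and 3009.5), the decoy receptor BAMBI (1587, 1173 and 2218) and TGFB3 (252, 345 and 317). BMP2, a granulosa and theca product, spread from 211 on replicate 2 to 634 on replicate 1. BMP4, BMP6, BMP7 and TGFB1 stayed below the level.

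Other secreted factors were above the level in 10 of 35 cases. PDGFC (3044, 2621 and 2942) and pleiotrophin, PTN (2689, 2558 and 3238), were among them, with PDGFB (1414, 1013 and 1206), VEGFB (693, 752 and 1107), the adipokine gene ADIPOQ (774, 706 and 969) and the parathyroid hormone-related peptide PTHLH (798, 858 and 778). IGF1 gave 759, 279 and 596, lowest on replicate 2, and IGF2 stayed below the level at 74.1, 102 and 122. HBEGF, a ligand of the epidermal growth factor receptor, ranged from 59.3 on replicate 2 to 347 on replicate 1. EGF, TGFA, NPPC (the granulosa peptide that holds the oocyte in arrest), HGF and BDNF were dim.

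Binding proteins of the insulin-like growth factors sequester the ligand before it meets its receptor. IGFBP7 gave 2665, 2054 and 3805, IGFBP4 1314, 1168 and 1734 and IGFBP2 971, 948 and 1273. IGFBP1 gave 501, 1607 and 1934, low on replicate 1, a range of 1.92 on the log2 scale, against 0.26 between replicates 2 and 3. IRS2 (1447, 1174 and 1376), AKT1 (979, 1138 and 1487), PIK3R1 (879, 1039.5 and 1000.4) and FOXO1 (549.7, 516 and 667), which act behind the receptor, had ranges of at most 0.60. IRS1 gave 32.5, 42.4 and 38.2 and IGFBP3, IGFBP5 and IGFBP6 were below the level. In all, 12 of 18 genes of the list were above it.

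Transcription factors known in the follicle were above the level in 21 of 27 cases. GATA6, partner of GATA4 in steroidogenic cells, gave 2793, 2456 and 3136, SOX4 2895, 3141 and 3825, CITED2 1962, 1763 and 2142 and EMX2 1502, 2079 and 1960.2. The immediate early gene FOS gave 3377, 1722 and 2484, highest on replicate 1 and lowest on replicate 2. CEBPB, needed for luteinisation, gave 882, 295 and 740.2, and CEBPA, which is also a myeloid factor, 1615, 122 and 224. Both were lowest on replicate 2 and highest on replicate 1. SOX9, a testis-determining factor, LHX9, NR5A1 and NR0B1 were below the level.

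Of the cyclic nucleotide pathway through which gonadotropins act, 6 of 24 genes were above the level. They were PRKAR2B, the catalytic subunit PRKACB (1262, 1074 and 1101), PRKAR1A (259.6, 332 and 284), the phosphodiesterases PDE5A (617, 957 and 406) and PDE8A (312, 435 and 263), and RGS2 (1180.3, 498 and 393). No adenylyl cyclase was above the level on all arrays, with ADCY3 above it on 1. RGS2, which dampens G-protein signals, was highest on replicate 1, and PDE5A on replicate 2.

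The junction and matrix lists hold the parts of the follicle wall. TJP1, CTNNA1, DSP, CTNND1, NECTIN2, F11R and CLDN1 were above the level out of 13 junction genes. CLDN1, a tight junction protein, gave 604, 1219.7 and 202, whereas TJP1 gave 2646, 2828 and 2952. Of 24 genes of basement membrane and matrix 19 were above the level, among them the laminin chains LAMC1 (2903, 3209 and 3136) and LAMB1 (1570.1, 1480.0 and 1111), perlecan HSPG2 (1647, 1858 and 2189) and nidogen NID1 (1714, 1242 and 1107). Fibronectin, FN1, gave 2892, 1450.2 and 1735, highest on replicate 1, and the fibrillin FBN2 489, 1058 and 394, highest on replicate 2. FBN1 gave 1082, 1248 and 560.4 and had its lowest signal on replicate 3.

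Proteases that remodel this wall were above the level in 11 of 21 cases. TIMP1, an inhibitor of matrix metalloproteinases, gave 3437, 3081 and 3707, and ADAMTS9 was nearly level at 2133, 2184 and 2182. ADAMTS4 gave 1168, 536 and 579, and the cathepsins CTSL 1687, 955 and 729, CTSD 754, 251 and 355 and CTSZ 1249, 650.4 and 1247. MMP1 gave 589, 38.1 and 57.2 and the urokinase PLAU 246, 29.7 and 29.6, both high on replicate 1 alone, with MMP1 above the level on that array only. Replicate 1 had the highest signal in 14 of the 21 genes, against 31.4% of all genes. With all arrays 5 of the 14 members above the level on at least 1 had a 2-fold range, against 7.39% of all genes so filtered. On replicates 2 and 3 alone 13 were above the level on at least 1 array, and 0 of these had such a range. The share of all genes was 3.21% there, and with so few members 0 is near it. MMP1 was taken out of this second count by the filter itself. Myeloid genes were high on the same array, and their part in these values was not tested.

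Genes of proliferation were above the level in 20 of 23 cases. PCNA, the replication clamp, gave 2949, 2718 and 2678, TOP2A 2345, 2589 and 2235, CCNB1 2038, 2458 and 2397 and CCNA2 1834, 2420.0 and 1878. The replication licensing factor MCM2 varied by 0.05 on the log2 scale, at 742, 731 and 717. Replicate 2 had the highest signal in 15 of the 20, against 33.7% of all genes above the level. CDK1, the mitotic kinase, gave 775, 1869 and 521 and MKI67, a marker of cycling cells, 444, 736 and 438. Over all 23 genes found, replicate 2 was highest in 16, against 29.7% of all genes, and in 16, 18 and 20 under quantile normalization, median centring and centring on the hybridisation controls. The shares of all genes under those scalings were 36.4%, 35.8% and 53.4%. CCND1 and CDK6 were below the level.

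Metabolic lists were bright too. Of 17 glycolysis and lactate genes 13 were above the level, including ALDOA (4098, 4049.6 and 5614), TPI1 (3127, 3122 and 4040.5), ENO1 (2839.8, 3445 and 3661), LDHA (2404, 2401 and 3152) and the lactate carrier SLC16A1 (2365, 2674 and 2832). The glucose carrier SLC2A3 gave 945, 253 and 613, lowest on replicate 2, and SLC2A1 173, 329.8 and 110.1. Of 20 antioxidant genes 17 were above the level, with GCLC, the rate-limiting enzyme of glutathione synthesis, at 3656, 4117 and 5168, SOD1 at 2734, 2824 and 3811 and PRDX4 at 2865, 2904 and 3501. Replicate 3 was highest in 10 of the 13 glycolysis genes, against 39.4% of all genes above the level. After median centring the count was again 10, against 45.5%, but after quantile normalization it was 5, against 34.3%. This order thus depends on which scaling is used. Catalase, CAT, gave 36.9, 21.5 and 20.9 and PRDX6 0.902, 3.65 and 3.23.

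The 30 genes of highest signal had means from 4724 to 7312. By symbol, 8 encoded ribosomal proteins (RPS6, RPL9, RPS7, RPL23, RPS3, RPL30, RPL35A and RPS28), and 13 had only a locus symbol: LOC698099, LOC716530, LOC697620, LOC694967, LOC710665, LOC711964, LOC708858, LOC708539, LOC695340, LOC704640, LOC719947, LOC702174 and LOC693785. The other 9 were CPQ, RALGAPA1, TMSB4X, H19, CKS2, GSTA3, ELOA, CD99 and SERPINE2. TMSB4X, an actin-sequestering peptide, gave 5271, 4958 and 6207, and H19, an imprinted non-coding RNA, 4490.3, 5177 and 5878. CKS2, a subunit of mitotic kinases, gave 4828, 4663 and 5644, and GSTA3, a glutathione transferase that also isomerises steroid precursors, 5141, 4321 and 5277. All 30 were highest on replicate 3, against 38.9% of all genes, and all 30 again after median centring, against 44.9%. After quantile normalization 15 of the 30 were, against 36% of all genes. After centring on the hybridisation controls 22 of the 30 were, against 11%. Their ranges ran from 0.27 to 0.58 on the log2 scale, and 24 of the 30 exceeded 0.34, the median range of genes above the level on at least 1 array. For 4 of them a second probe set was not above the level: it averaged 200.2 for RPL9, 16.3 for LOC697620, 13.2 for RPL30 and 10.8 for RPS28. RALGAPA1, TMSB4X, H19, RPL35A and ELOA, with more probe sets, also had at least 1 that was not above the level.

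**Figure D4:**
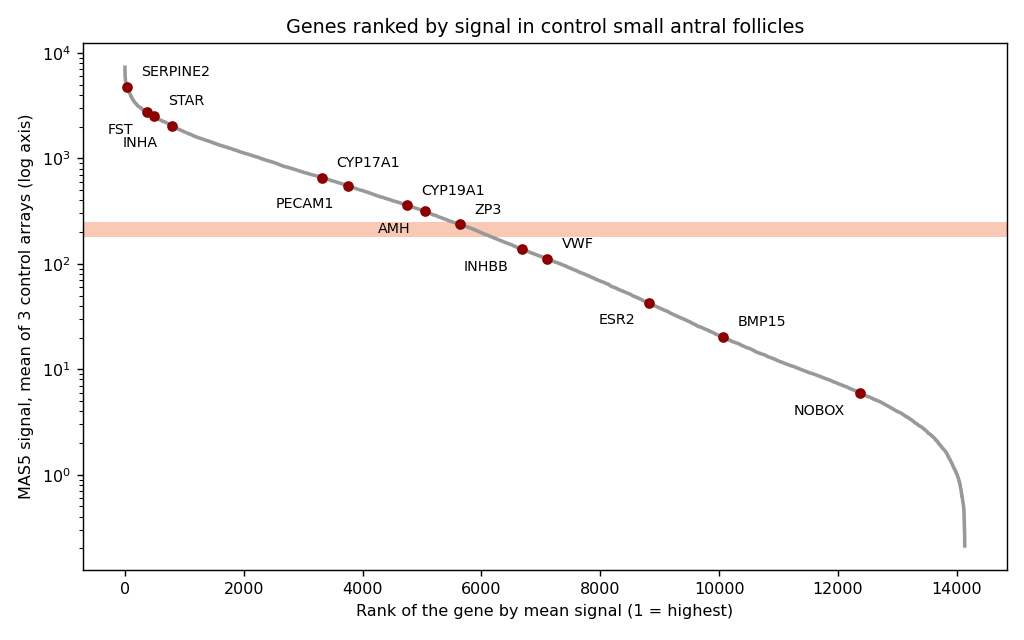
All 14132 genes ranked by mean signal over the 3 control arrays (x axis, rank 1 the highest; y axis, MAS5 signal on a log scale), with 14 genes marked and the reference level shaded. SERPINE2 lies in the top 30, STAR at 2513 and FST at 2722, CYP17A1 at 657 and PECAM1 at 545, and ESR2, BMP15 and NOBOX at 42.4, 20.2 and 5.93.

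Spread between the animals was small for most genes. The level was exceeded on at least 1 array by 6281 genes (44.4%). Among these the median range between the highest and the lowest array was 0.34 on the log2 scale of signal plus 16, and 464 genes (7.39%) had a range of at least 2-fold. Of those 464, 246 were highest on replicate 1, and of the 113 with a range of at least 4-fold, 96, against 31.4% of all genes. On replicates 2 and 3 alone 17 genes had a range of at least 4-fold. Only 51 of the 113 exceeded the level on replicate 2 or 3, so the filter itself took the others out of that count. For a range of at least 2-fold, without replicate 1 the count was 198, against 264 without replicate 2 and 265 without replicate 3. The 10 list genes with the narrowest range were SMAD5, NSDHL, ADAMTS9, DIABLO, MCM2, HSD17B8, ACVR1, NR5A2, NR2F2 and INHBA, at 0.02 to 0.10 on the log2 scale. DIABLO, an apoptosis regulator, gave 468, 462 and 452, and ACVR1, a BMP receptor, 313, 321 and 302.

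The 20 genes of widest range were led by CCL18, a macrophage chemokine, with 1855, 3.24 and 112 on replicates 1 to 3. Osteopontin, SPP1, gave 1823, 69.3 and 266, the scavenger receptor CD36 1112, 48.7 and 98.7 and the galectin LGALS3 2637, 179.7 and 584. The fatty acid carrier FABP4 gave 321, 5.60 and 36.9, the alarmin IL33 879.8, 127 and 56.0 and the lysosomal glycoprotein GPNMB 3211, 269 and 446. Replicate 1 was highest in 18 of the 20, against 31.4% of all genes. The 20 also held TREM1, CD68, GPR183, ADAMDEC1, CEBPA, MMP1, LY86, PTX3, CD53, LOC708576 and LOC715927. KRBOX1 (4.60, 144 and 473) and ADCK2 (185, 130.0 and 1612) were highest on replicate 3. LOC708576 gave 948, 43.6 and 919.8, low on replicate 2 alone. Of the 20, 8 were above the level on replicate 2 or 3, and 6 of these had a 2-fold range between the remaining arrays, as did 3.21% of the 6173 genes that passed that filter. These genes were chosen for their range, so the share is a description.

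**Figure D5:**
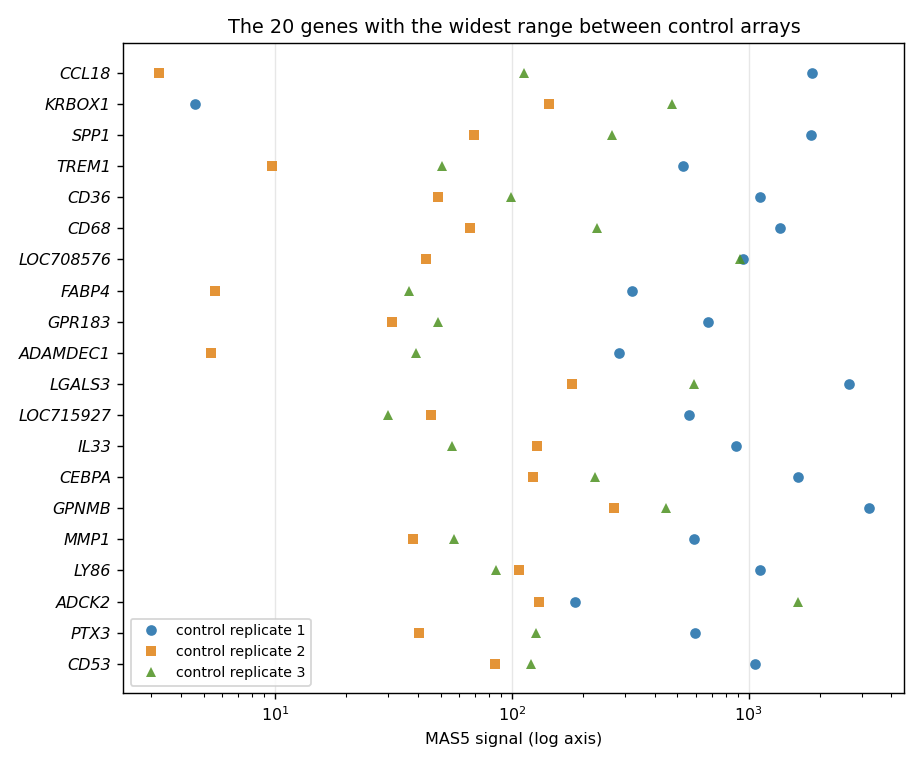
MAS5 signal (log axis) on each control array of the 20 genes with the widest range among genes above the reference level on at least 1 array. Replicate 1 is the highest point in 18 rows, as in CCL18 (1855 against 3.24 and 112) and LGALS3 (2637 against 179.7 and 584).

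Probe sets of 1 gene often disagreed. Of 494 list genes found, 283 had several probe sets: all were above the level in 42 genes, none in 117, and some but not others in 124. Among genes described above the level, the next brightest probe set averaged 15.7 for NOTCH3, 29.7 for WT1, 40.4 for ZP4 and 95.8 for IHH. Among reference genes 6 of 116 were above the level, as the rule allows: TBR1, TNNI3, KRT10, LIM2, BFSP1 and GFAP, at means of 341 (GFAP) to 1855 (TBR1). SRY, the Y-linked gene on the list of checks, gave 1026, 889 and 1551 by its brighter probe set and 4.73 by the other, although the follicles were from females. A bright probe set is therefore not in itself evidence of the transcript in its symbol.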

How the data were processed

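RNA of 9 pooled samples of small antral follicles was amplified with NuGEN's Ovation kit by a 3′ in vitro transcription assay and read on 1-colour Affymetrix arrays, 1 per sample, per the labels' protocols. Each probe set has a linear intensity that the authors computed with MAS5 (version not given), according to the submitters' processing notes. Trimmed by 2% at each end, the probe sets of every control array averaged 200.01, so the deposited intensities share 1 scale. The genome build is not given in the sources used here. MAS5 detection calls were not used here.

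Groups came from the labels, which call the 3 control samples biological replicates. Of 52865 probe sets, 99 controls were left out. Of the rest 24956 carried 1 gene symbol in the array's GEO annotation, 361 several and 27449 none, and only those with 1 symbol were used, for 14132 genes. Symbols were not checked against probe sequences. A gene was represented by its probe set of highest mean signal. The reference level and the calls were computed as described with them, and ranges on log2 of signal plus 16, which understates folds of dim genes. The hybridisation controls and the genes at least 2-fold above both other arrays were looked at after the values were seen. No test was run, since the comparison is within 1 group, and the number of arrays limits the precision. The calls were also run on simulated signals, in which dim and bright genes had equal noise on the log2 scale. That run does not show how reliable the calls are on these arrays. Python 3.11.15, numpy 2.4.6, pandas 2.3.3 and matplotlib 3.10.9 were used.

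The members and lists were chosen with earlier results of these data known. Named were list members (up to 8 per list by mean signal in full, with a fixed set of hormones, enzymes and markers whatever their values), the 30 genes of highest signal, the 20 of widest range and the 10 list genes of narrowest range. Other list members with values were chosen after those were seen. List genes matched by exact symbol in 494 of 698 cases. A planned search of promoters for motifs was not run, since no promoter sequences were used here. Alternatives were other percentiles and levels, other pseudocounts, 2 further normalizations and centring on the hybridisation controls, medians over probe sets, and leaving out each replicate.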

Additional observations from a re-analysis of the deposited data

How the results depend on the processing

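With the level at the 99th percentile of the reference genes 1013 genes were above it, and with the median signal of all non-control probe sets as the level 9229, against 5242. The same alternatives gave 4 and 16 granulosa, 3 and 10 theca, 0 and 16 oocyte, 0 and 15 endothelium and 0 and 11 macrophage genes, and the median level gave 1 lymphocyte gene. At the 90th percentile 8 oocyte, 7 blood vessel endothelium, 7 macrophage, 3 lymphatic endothelium, 3 adipocyte and 7 cytokine genes were above the level, against 4, 2, 4, 0, 1 and 4. With the mean over the arrays, 2 adipocyte and 7 macrophage genes were above the level. Counts for other lists moved by over 1.5 times under the same levels, in 27 of 32 lists at the 99th percentile and 18 of 32 at the median. Leaving out each replicate in turn, or taking the median over probe sets, moved no list's count by that much. Genes with a 2-fold range numbered 1152 without the filter on low signals, and 198 to 265 when an array was left out. Replicate 1 was highest in 3 stroma genes rather than 5 after median centring and with medians over probe sets. After quantile normalization replicate 3 was highest in 5 rather than 8 cholesterol genes and in 5 rather than 10 glycolysis genes. The cause was not tested. Centring on the hybridisation controls moved the median of all genes on replicate 3 by -0.20 (log2).

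No paired analysis was possible because the results come from no test and 1 group alone was described. The promoter motif search was not run. Dim genes are limited by signal over background, since 5% of genes of other tissues pass the level by its definition.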

Other observations

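Some lists hold genes of cells that a cleaned follicle may carry along. UPK1B, a uroplakin of the surface epithelium, gave signals of 504, 978 and 979.6 on replicates 1 to 3 and the keratin KRT8 299, 348 and 406, the only members above the reference level of 9 epithelial genes. KRT19 (148, 290.1 and 245) was above it on 2 arrays, whereas the mesothelial genes MSLN and UPK3B were dim. Of 7 erythroid and platelet genes only HBB, β-globin, was above the level, at 569.8, 874 and 641, with ALAS2 at 19.3, 22.5 and 24.0. Of 5 adipocyte genes only ADIPOQ was by its brightest probe set, at 774, 706 and 969. By theirs LPL gave 936, 77.5 and 132 and LEP 89.2, 107 and 112. LPL had 4 probe sets, and 1 of the less bright was above the level on all 3 arrays.

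Cytokines and chemokines were mostly dim, with 4 of 24 above the level. MIF gave 1134, 972 and 1522, CCL2 2015, 272 and 565, CCL21 1331, 432 and 820.3 and CCL8 380.3, 425 and 312. Replicate 1 was the highest array in 14 of the 24, against 31.4% of all genes, and in 12 to 14 under the other scalings, where 19.3% to 35.6% of all genes were highest on it. With all arrays 5 of the 7 members above the level on at least 1 had a 2-fold range, as did 2 of 3 adipocyte genes. The share of all genes so filtered was 7.39%. On replicates 2 and 3 alone, 3 of the 6 cytokine genes and 0 of the 1 adipocyte gene above the level on at least 1 array had such a range. The share of all genes was 3.21% there. The adipocyte genes FABP4 and LPL and the cytokine IL33 exceeded the level on replicate 1 only, by their brightest probe sets. The filter itself thus took them out of the second count. With no filter, FABP4 and LPL had ranges of 1.29 and 0.67 on the log2 scale between replicates 2 and 3. Myeloid genes were high on replicate 1 too, and their part was not tested. IL6 (80.7, 10.2 and 38.2), IL1B (194, 16.4 and 115) and TNF (1.00, 0.392 and 0.849) were below the level. Of 19 cell cycle inhibitors and apoptosis genes 9 were above it, among them RB1 (1843, 1991 and 1930.5), CDKN1B (1394, 1554 and 1565), PMAIP1 (2084, 998 and 1814) and BAX (992, 906 and 1432). BCL2 gave 5.58, 0.924 and 1.94 and CASP8 108, 50.05 and 104.

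Among 39 genes with symbols of ribosomal proteins, 33 were above the level, at a median percentile of 98.6. Replicate 3 was highest in 31 of the 39, against 38.9% of all genes, and in 22 after quantile normalization, against 36.0%. Beyond the named genes, 3401 probe sets without a single symbol were above the level on all 3 arrays.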
